A study of Mus musculus with 14 samples.

Results

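The urea cycle genes described here are the 6 enzymes and 2 mitochondrial carriers of the pathway: Nags, Cps1, Otc, Ass1, Asl, Arg1, Slc25a15 and Slc25a13. They were taken by gene symbol, a rule that uses no measured value, although the pathway was picked with earlier results of these data known. They are 8 of the 22481 symbols in the deposited expression tables. In the lists of m6A peaks, the same symbols took 6 of 17277 peaks in hepatocytes labelled cKO and 55 of 17175 in hepatocytes labelled WT. All mice were C57BL/6 and 8 weeks old. The cKO animals carried Alb-cre and Mettl3 fl/fl (Mettl3 cKO), so that Mettl3, the m6A methyltransferase gene, is deleted where the albumin promoter is active, mainly in hepatocytes. The wild-type (WT) animals carried Alb-cre too, and the study's methods allow heterozygous as well as wild-type littermates as controls. For each genotype there was 1 input library and 1 m6A immunoprecipitation (IP) library from male hepatocytes, isolated by collagenase perfusion and low-speed pelleting. Male liver was sampled with 2 inputs and 2 IPs of either genotype. Female liver was sampled by RNA-seq without IP, with 1 library of either genotype. The female library titled WT has a genotype tag that reads Mettl3 cKO, and its title was followed. Nothing in the labels says whether the 2 male liver libraries of a genotype came from separate animals, so p-values here measure only the spread between these libraries.

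The urea cycle turns ammonia, the toxic product of amino acid breakdown, into urea, and runs in full almost only in hepatocytes, above all in those around the portal vein. NAGS makes N-acetylglutamate, the activator without which CPS1 does not work. CPS1 joins ammonia with bicarbonate to carbamoyl phosphate, and OTC joins that with ornithine to citrulline, both inside mitochondria. In the cytosol ASS1 adds aspartate, ASL splits off fumarate to leave arginine, and ARG1 cuts arginine into urea and ornithine. SLC25A15 carries ornithine into mitochondria in exchange for citrulline, and SLC25A13 (citrin) exports the aspartate. N6-methyladenosine (m6A) is a mark on adenosines of mRNA, written by METTL3 with METTL14, often within the letters GGAC, and it can change how long an mRNA lasts.

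Expression was measured in FPKM, which scales the fragments of a gene by its length and by the depth of the library. Mettl3 itself, in the livers, went against its label. It was at 2.91 FPKM in hepatocytes labelled cKO and 3.44 in those labelled WT, at 26.3 and 14.7 in male livers labelled cKO against 8.43 and 10.6 in those labelled WT, and at 72.3 in the female liver labelled cKO against 29.7 in that labelled WT. In male liver the difference did not pass the test (0.99 ± 0.42 SE on the log2 scale, adjusted p = 0.197 in limma). Reads from Mettl3 exons outside the deletion can still count in these values, so the values are no check of the deletion itself. Single exons were not looked at, and the cause of the higher Mettl3 level in livers labelled cKO was not tested. Nor was it tested whether liver labels were exchanged, which would turn the direction of the liver comparisons. Libraries are called by their labels throughout. The scaled counts on genes summed to 1885720 to 4141985 per library in hepatocytes and male liver and to 13085449 (labelled cKO) and 11059414 (labelled WT) in female liver. The 8 genes rested on 35.8 (Nags, hepatocytes labelled WT) to 31748 (Cps1, male liver labelled cKO, replicate 3) scaled counts. Marker lists of cell types were summed for each sample. Kupffer cell markers, 10 genes of liver macrophages, summed to 11.4 FPKM in the hepatocyte input labelled cKO against 535 in that labelled WT, to 312 and 476 against 133 and 145 in male liver, and to 1056 against 335 in female liver. The 10 hepatocyte markers summed to 37357 against 19737 FPKM in hepatocytes, 30180 and 41113 against 35378 and 50748 in male liver, and 52471 against 32685 in female liver, where albumin (Alb) is listed at 0 in the library labelled WT. Alb alone had 21159 against 11189 FPKM in hepatocytes and 6112 and 11761 against 17598 and 25024 in male liver. By gene, 10 of 10 were higher under the cKO label in hepatocytes. In male liver 4 were higher and 6 lower, and in female liver 5 and 5. Periportal markers summed to 2025 against 444 FPKM in hepatocytes, 855 and 794 against 1453 and 1423 in male liver and 756 against 2403 in female liver. Pericentral markers summed to 1039 against 490, to 1855 and 1431 against 4620 and 4731, and to 887 against 3711 FPKM in the same order. Other lists were lower under the cKO label in hepatocytes (endothelium 25.3 against 249 FPKM, stellate cells 7.92 against 72.5, cholangiocytes 1.94 against 8.94, leukocytes 5.66 against 31.4). Their sums were higher under it in male liver (164.8 and 139 against 112 and 80.7 for endothelium, 204 and 280 against 87.3 and 87.5 for stellate cells, 30.4 and 32.8 against 10.4 and 12.7 for leukocytes). The endothelial sums rest in part on Stab1 (76.7 and 10.4 against 13.1 and 4.08 FPKM). Only 2 of the 8 endothelial markers lay higher in both livers labelled cKO than in either labelled WT. Their median log2 difference was 0.25, against 0.42 for all genes. In female liver the lists summed to 305 against 146 FPKM for endothelium, 105 against 128 for stellate cells and 434 against 37.1 for leukocytes. Single genes carry much of these sums. Stab1 had 199 against 40.8 FPKM, while 5 of the 8 endothelial markers were lower under the cKO label. S100a8 had 187 against 17.3 FPKM and S100a9 240 against 11.3, while 2 of the 5 leukocyte markers were lower. Of the 8 stellate cell markers 6 were higher under the cKO label, against the direction of their sum. The 2 lower ones were Dcn (42.6 against 79.7 FPKM) and Col3a1 (12.7 against 22.9 FPKM). In such bulk samples fewer cells of a type and less RNA per cell cannot be told apart.

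In hepatocytes the urea cycle mRNAs carried far fewer listed m6A peaks under the cKO label than under the WT label. The IP library labelled cKO held 6 peaks in 5 of the 8 genes, and the one labelled WT held 55 peaks in 7 of the 8. Among all genes of at least 1 FPKM in the own input, 64.6% had a peak in the library labelled cKO and 63.8% in the library labelled WT. Cps1 had 1 peak in hepatocytes labelled cKO and 28 in those labelled WT, where only 1 gene had more (37). Ass1 had 0 peaks against 10, Asl 0 against 4, Otc 1 against 4, Arg1 2 against 4, Slc25a15 1 against 3 and Slc25a13 1 against 2. Nags had none in either. Of the 55 peaks under the WT label, 50 (90.9%) met no peak under the cKO label by even 1 shared base, as did 64.5% of all WT peaks. There is 1 IP library per genotype, so these counts have no test, and peaks of 1 gene share its reads.

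The peaks were cut at exon edges, and 43 of the 55 in hepatocytes labelled WT are exactly 1 exon of the reference transcript (GENCODE M21, GRCm38). Peaks that touch once introns are removed can be 1 stretch of signal, and by that count the 55 form 25 stretches. The 28 Cps1 peaks lie in 28 of 38 exons, cover 73.9% of the 5555-base transcript and form 8 stretches. Ass1 had peaks in 10 of 16 exons, covering 68.2% of the transcript, and Arg1 in 4 of 8, covering 63.6%. Otc peaks covered 19.6% and those of Slc25a13 31.8%. By place, 42 of the 55 peaks lay wholly in coding sequence, 5 lay in or reached into the 5′ UTR and 8 the 3′ UTR. The stop codon was covered in 5 genes: Ass1, Asl, Arg1, Slc25a15 and Slc25a13.

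**Figure D1:**
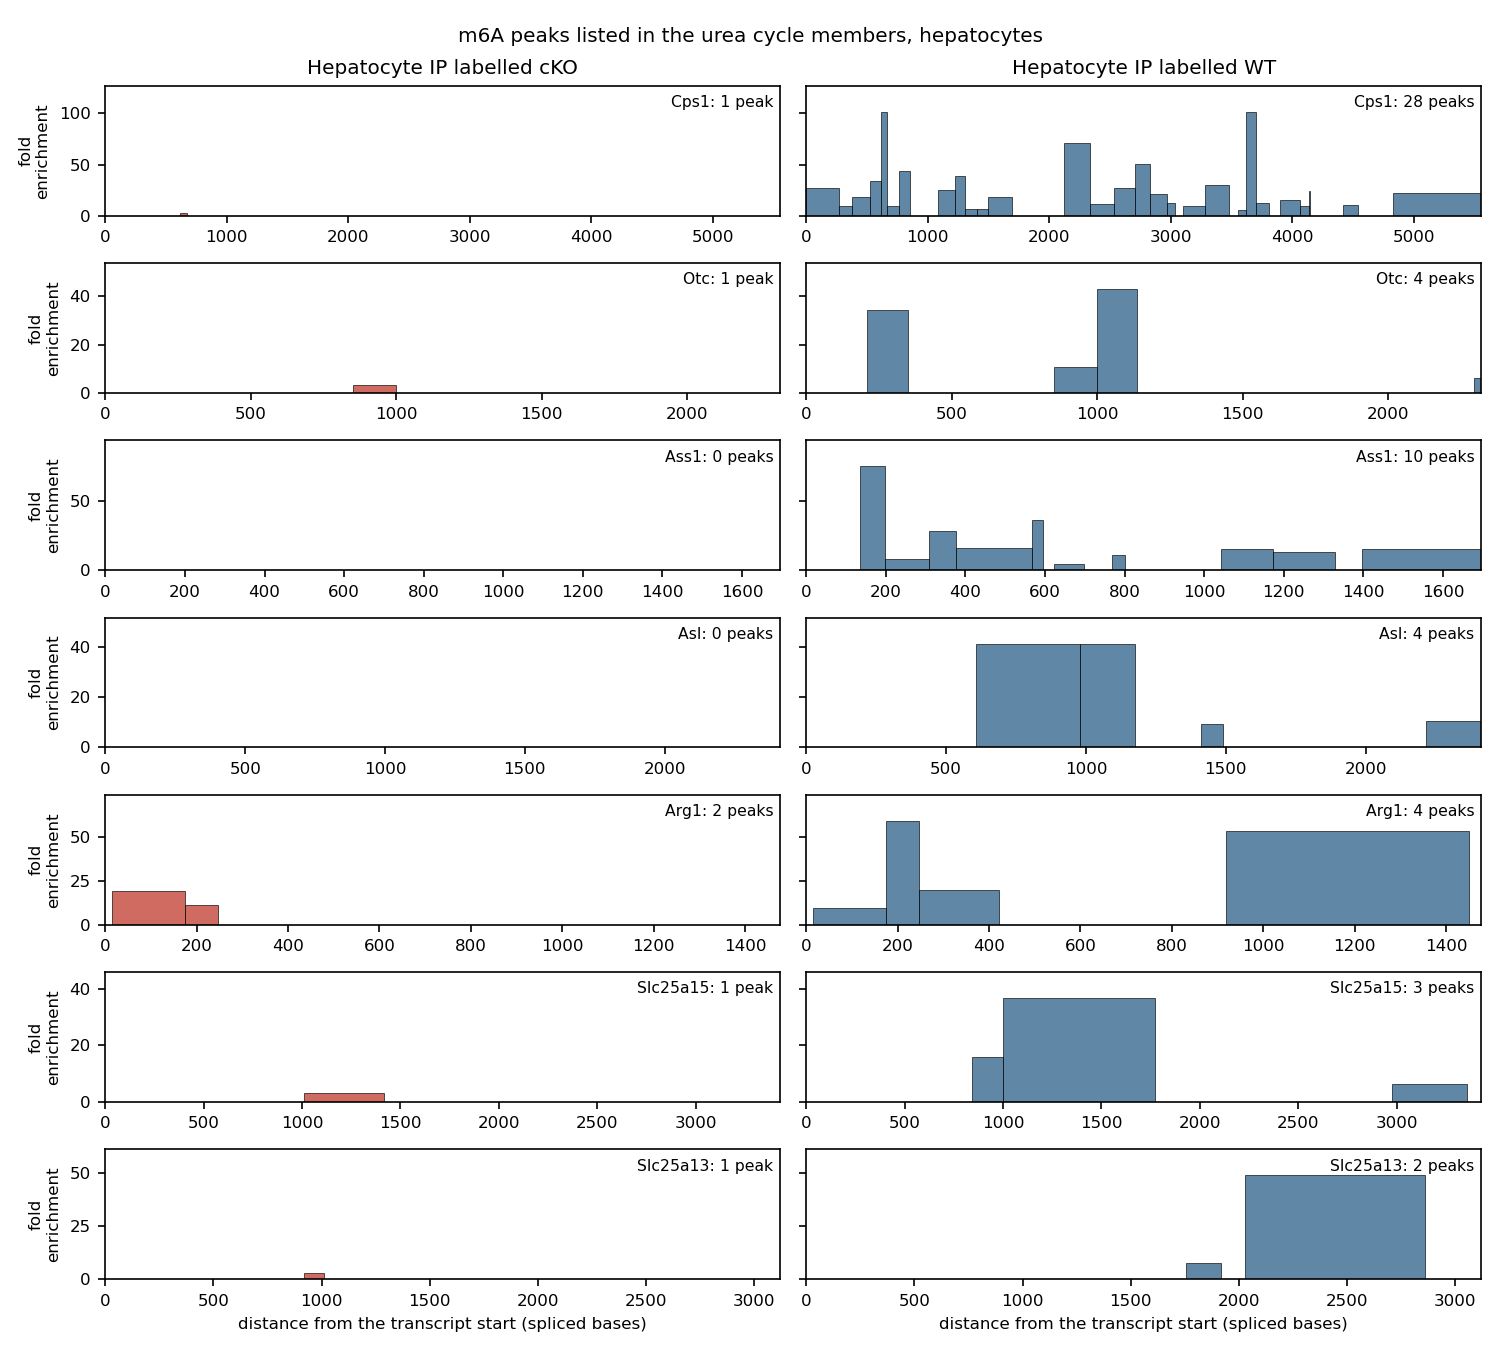
Listed m6A peaks along the spliced transcripts of 7 urea cycle genes in hepatocytes (Nags had none). The x axis is the distance from the transcript start in spliced bases, the height of each box is the fold enrichment of IP over input, and the left column is the IP library labelled cKO, the right column that labelled WT. Under the WT label 28 boxes cover 73.9% of Cps1, against a single low box (2.70-fold) under the cKO label.

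The coding exons printed here were chosen after their values were seen, as exons with a peak in both hepatocyte libraries, with a strong peak in 1 of them or with a peak that recurred in liver. They are given 5′ to 3′ on the transcript strand from GRCm38 with every GGAC in capitals. Cps1 exon 5 (chr1:67145787-67145843) had a fold enrichment of 2.70 in hepatocytes labelled cKO and 101 in those labelled WT. Cps1 exon 29 (chr1:67209596-67209673) had no peak against one of 101-fold. Cps1 exon 26 (chr1:67204508-67204702) had no peak against one of 29.6-fold, and recurred in 1 male liver labelled cKO (15.3-fold). Otc exon 8 (chrX:10308911-10309060) had 3.30-fold enrichment against 10.7-fold. Arg1 exon 2 (chr10:24922621-24922693) had 11.3-fold against 59.3-fold. Slc25a15 exon 6 (chr8:22379284-22379442) had no peak against 15.8-fold.
Cps1 exon 5: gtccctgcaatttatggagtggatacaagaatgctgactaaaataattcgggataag
Cps1 exon 29: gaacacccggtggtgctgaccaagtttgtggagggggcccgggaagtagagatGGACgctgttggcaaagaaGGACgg
Cps1 exon 26: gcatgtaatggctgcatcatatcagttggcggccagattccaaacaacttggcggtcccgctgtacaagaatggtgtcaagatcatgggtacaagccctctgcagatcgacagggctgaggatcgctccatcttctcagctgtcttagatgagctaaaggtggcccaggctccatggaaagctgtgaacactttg
Otc exon 8: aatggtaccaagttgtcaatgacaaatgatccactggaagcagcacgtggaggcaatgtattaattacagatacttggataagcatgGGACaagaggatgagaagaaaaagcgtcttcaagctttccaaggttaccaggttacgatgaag
Arg1 exon 2: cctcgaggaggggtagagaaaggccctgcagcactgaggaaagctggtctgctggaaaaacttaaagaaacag
Slc25a15 exon 6: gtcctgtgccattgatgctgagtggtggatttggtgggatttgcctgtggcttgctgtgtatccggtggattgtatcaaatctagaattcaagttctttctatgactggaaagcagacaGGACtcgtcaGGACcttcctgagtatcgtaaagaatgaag
GGAC was searched on the transcript strand only and does not overlap itself. It occurs in 25 of the 55 peaks (45.5%), against 62.6% of the 16887 peaks of that library whose gene strand is known, which are longer. Over peaks within 20% of each member's length, the share with GGAC averaged 51.4%. It was 29.5% at the length of Cps1 exon 5, which has none, and 35.8% at that of Cps1 exon 29, which has 2. It was 60.9% at the length of Cps1 exon 26, 54.8% for Otc exon 8, 33.4% for Arg1 exon 2 and 56.6% for Slc25a15 exon 6.

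Where both hepatocyte libraries had a peak, 4 of 5 peaks were weaker under the cKO label, against 74.95% of the 6204 pairs of overlapping peaks over all genes. The median fold enrichment over all peaks was 14.95 in the library labelled cKO and 28.5 in that labelled WT. Beside the exons above, the peak over the stop codon of Slc25a15 (chr8:22377568-22377971 in the library labelled cKO, chr8:22377208-22377981 in that labelled WT) had 3.21-fold enrichment against 36.8-fold. The exception was the first exon of Arg1 (chr10:24927312-24927470), with 19.0-fold in hepatocytes labelled cKO and 9.5-fold in those labelled WT. The listed false discovery rate of these genes' peaks ran from 14.6% to 25.8% under the cKO label and from 1.11% to 7.40% under the WT label, and medians over all peaks were 12.3% and 1.66%. Fold enrichment has the input below the line, and the inputs differed in the opposite direction: the 8 genes summed to 1774 FPKM in the input labelled cKO and 309 in that labelled WT. Cell type markers split likewise. Of 10 Kupffer cell markers, 9 had a peak in the IP labelled cKO and 1 in that labelled WT, and of 8 endothelial markers 7 and 3, while in the inputs both lists were far lower under the cKO label, as given above. Hepatocyte lists went the other way, as the urea cycle genes did. Of 10 hepatocyte markers 3 had a peak in the IP labelled cKO and 9 in that labelled WT. The counts were 3 and 9 of 9 periportal markers and 6 and 8 of 10 pericentral markers. The part of this split in the peak counts and that of the input level in the fold enrichment were not tested. Nor was it tested whether the labels of the hepatocyte inputs and IPs belong together: should the 2 inputs or the 2 IPs be exchanged, the direction of the comparisons that rest on them would turn.

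In male liver few peaks were listed at all, and the urea cycle genes had as many under either label. The IP libraries labelled cKO held 3 and 2 peaks in these genes (replicates 2 and 3) and those labelled WT 2 and 3. They fell in 2 and 2 genes against 2 and 3 of the 8, where 7.80% and 5.36% of genes of at least 1 FPKM had a peak under the cKO label and 14.4% and 5.51% under the WT label. Arg1 had the peak seen most often, 573 bases over the stop codon (chr10:24915207-24915779). Its fold enrichment was 35.6 in cKO replicate 2, with none listed in cKO replicate 3, and 81.5 and 35.3 in the livers labelled WT, and an overlapping peak of 53.5-fold was listed in hepatocytes labelled WT but not in those labelled cKO. Slc25a15 had its stop codon peak in cKO replicate 3 (25.02-fold) and the exon 6 peak in WT replicate 3 (3.83-fold). Slc25a13 had a 1115-base peak over its stop codon in cKO replicate 3 (35.3-fold). Cps1 had exon 26 (15.3-fold) and a peak of 1 base (2.43-fold) in cKO replicate 2, and exon 32 (7.30-fold) in WT replicate 3. The only Nags peak of the series was in WT replicate 2 (3.23-fold). Otc, Ass1 and Asl had none in the 4 liver libraries. The listed false discovery rate was 100% for all of these except Arg1 in WT replicate 2 (52.6%).

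Among mRNA levels in male liver, Otc alone passed the test, 3.66-fold lower in cKO on the log2(FPKM + 1) scale, and 4 of the 8 genes were lower in both livers labelled cKO than in either labelled WT. In the limma fit with Benjamini-Hochberg adjustment over 10937 genes, 1 of the 8 was lower in cKO and 0 were higher, against 1.50% of all genes lower and 3.68% higher. At an unadjusted p under 0.05 the counts were 2 and 0 of the 8, against 559 lower and 2209 higher of the 10937 genes. The median of all genes was higher by 0.42 on the log2(FPKM + 1) scale, on which every difference here is given, and moved to -0.01 when libraries were scaled by their median ratio. The split of all calls went with it: 164 lower and 403 higher as deposited (71.1% higher), and 291 and 162 after scaling (35.8% higher). Genes with both livers labelled cKO below both labelled WT were 4 of 8, against 11.7% of all genes, and those above were 2 of 8, against 44.8%. In the same livers all 10 Kupffer cell markers had a higher mean of log2(FPKM + 1) under the cKO label, as did 71.3% of the 10937 genes. Of these markers 8 lay higher in both livers labelled cKO than in either labelled WT, and 1 passed the test. The summed periportal and pericentral markers lay below those of both WT livers. By gene, 7 of 9 periportal markers were lower and 2 higher, and 8 of 10 pericentral markers were lower and 2 higher. Of the periportal markers, 2 passed the test as lower and 1 as higher (Aldh1b1, 3.47 ± 0.45 SE, adjusted p = 0.0153 in limma). The part of these differences in the values of the urea cycle genes was not tested.

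Of the mitochondrial enzymes only Otc passed the test. Nags had 8.504 and 9.53 FPKM in livers labelled cKO, against 7.26 and 13.5 in those labelled WT, and the groups overlapped (difference -0.13 ± 0.42 SE, adjusted p = 0.879 in limma). Cps1, the most abundant mitochondrial enzyme, had 791 and 995 FPKM in cKO livers, against 667 and 735 in WT livers. Both cKO values lay above both WT values, but the difference did not pass the test (0.34 ± 0.31 SE, adjusted p = 0.528 in limma), and it turned to -0.19 under median-ratio scaling. Otc, the enzyme that makes citrulline, had 16.8 and 26.3 FPKM in cKO livers, against 67.4 and 94.5 in WT livers. It averaged 21.6 ± 6.70 FPKM in cKO livers and 81.0 ± 19.2 in WT livers (SD, n = 2 each), a difference of -1.87 ± 0.38 SE (3.66-fold lower, adjusted p = 0.0428 in limma). The Otc call is near the threshold: it held in 5 of 12 alternative fits. Where all 4 libraries were kept, adjusted p ran from 0.0143 to 0.116 in limma. The call was lost without any 1 of the 4 libraries, but such fits leave 1 library in a group and call almost no gene, so they cannot judge it. The Otc difference was -1.57 to -2.18 in them, and stayed between -1.57 and -2.38 over all alternatives.

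None of the cytosolic enzymes passed the test. Ass1, the most abundant of the 8, had 1117 and 854 FPKM in cKO livers, against 1208 and 1598 in WT livers (-0.51 ± 0.33 SE, adjusted p = 0.375 in limma). Asl had 39.9 and 46.5 FPKM in cKO livers, against 106 and 60.8 in WT livers (-0.88 ± 0.38 SE, adjusted p = 0.210 in limma). For both genes the groups did not overlap, and for Asl the WT livers differed more from each other than the nearer of them did from the cKO livers. Arg1, which releases the urea, had 236 and 395 FPKM in cKO livers, against 355 and 297 in WT livers, and the groups overlapped (-0.09 ± 0.36 SE, adjusted p = 0.906 in limma).

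The differences of the carriers had opposite signs, and neither passed the test. Slc25a13, the aspartate exporter, had 20.5 and 25.2 FPKM in cKO livers, against 51.8 and 44.9 in WT livers (-1.05 ± 0.34 SE, 2.07-fold, adjusted p = 0.119 in limma). Its groups lay well apart, and the difference passed the threshold only under median-ratio scaling (-1.56, adjusted p = 0.0495 in limma). Slc25a15, the ornithine carrier, had 70.3 and 70.7 FPKM in cKO livers, against 50.8 and 46.3 in WT livers (0.53 ± 0.32 SE, adjusted p = 0.343 in limma). Its cKO values lay above the WT values, by about the shift of all genes, and median-ratio scaling took the difference to 0.01.

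**Figure D2:**
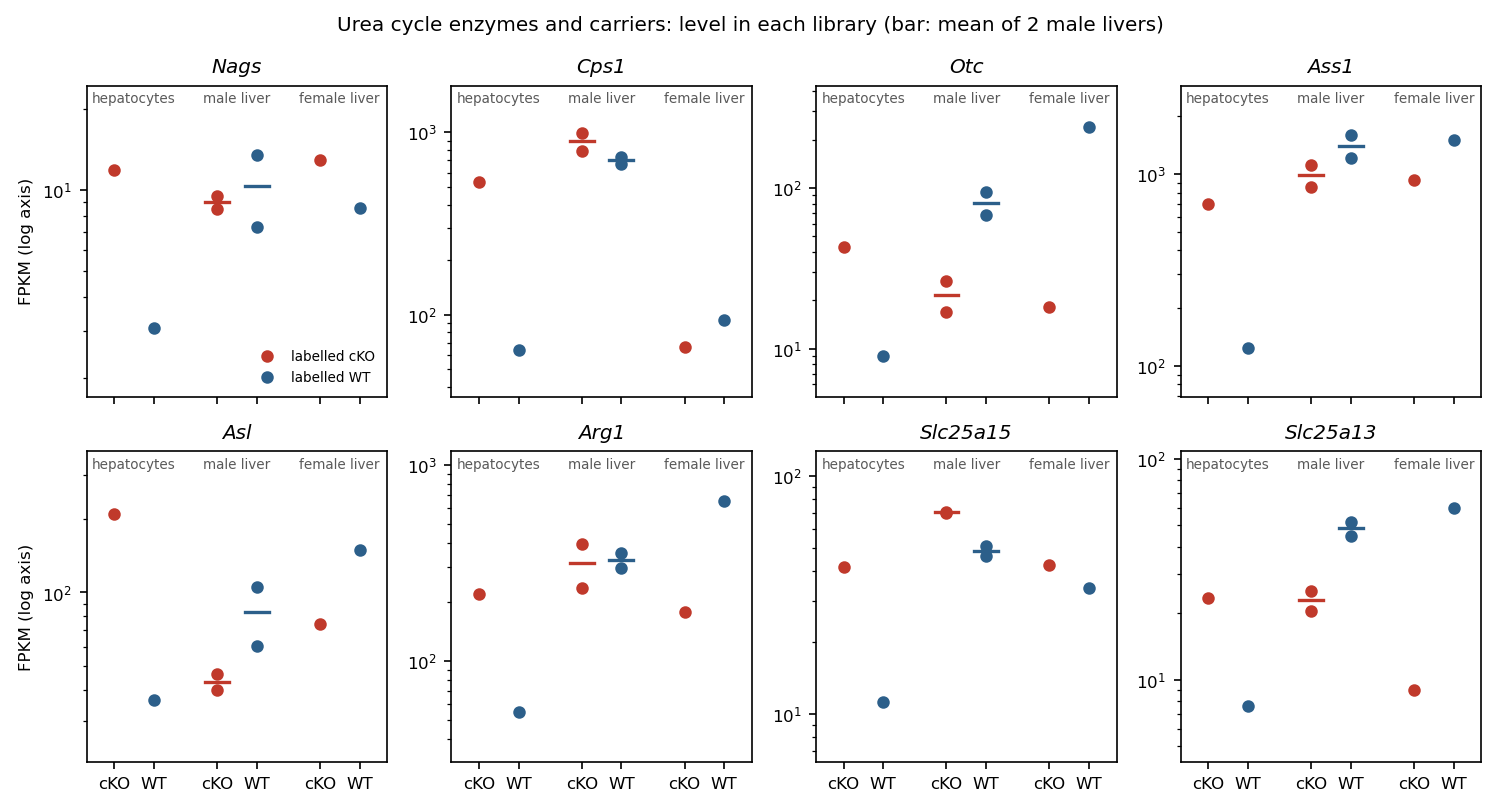
Level in FPKM (log axis) of the 8 urea cycle genes in each expression library, with libraries labelled cKO in red and left of those labelled WT in blue, for hepatocytes, male liver and female liver; the bar is the mean of the 2 male livers. Otc and Slc25a13 are lower under the cKO label in male and female liver and higher in hepatocytes.

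In hepatocytes all 8 genes were higher under the cKO label, with 1 library per genotype and no test. Cps1 had 533 FPKM in hepatocytes labelled cKO and 63.5 in those labelled WT, the widest gap of the 8 (log2 difference 3.05). Ass1 had 694 against 124 FPKM (2.48) and Asl 209 against 36.5 FPKM (2.48). Otc had 43.0 against 9.01 FPKM (2.14) and Arg1 218 against 54.5 FPKM (1.98). These enzymes thus lay 4.01 to 8.39 times higher in FPKM. Slc25a15 had 41.5 against 11.3 FPKM (1.79), Nags 11.9 against 3.07 FPKM (1.66) and Slc25a13 23.4 against 7.60 FPKM (1.51). At least 2-fold higher were 8 of 8, against 23.6% of 9596 genes, and at least 2-fold lower 0 of 8, against 13.2%. Their median was 2.06 and that of all genes 0.41. Rescaling without mitochondrially encoded genes, which held 38.1% and 38.5% of FPKM in these libraries, left 5 of 8 past 2-fold (range 0.73 to 2.21) and took the median of all genes to -0.24. The markers of Kupffer cells (10 of 10), endothelium (8 of 8) and stellate cells (5 of 5 measured) were at least 2-fold lower in the same library. Their part in the difference was not tested.

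In female liver 6 of the 8 genes were lower under the cKO label, again with 1 library per genotype and no test. Otc had 18.1 FPKM in the liver labelled cKO and 239 in that labelled WT, the widest gap (-3.65, a 13.2-fold ratio of FPKM). Slc25a13 had 9.02 against 60.0 FPKM (-2.61) and Arg1 178 against 651 FPKM (-1.86). Those 3 were past 2-fold. Asl had 74.5 against 150 FPKM, just short of 2-fold on this scale (-0.997), Ass1 930 against 1496 FPKM (-0.68) and Cps1 66.0 against 93.01 FPKM (-0.49). Nags had 12.9 against 8.61 FPKM (0.54) and Slc25a15 42.4 against 33.8 FPKM (0.32). The last 2 turned below 0 under median-ratio scaling (-0.11 and -0.37), and neither reached the median of all genes, 0.61. At least 2-fold lower were 3 of 8, against 11.3% of 11046 genes, and at least 2-fold higher 0 of 8, against 36.8%. The first count became 6 under median-ratio scaling and 5 without mitochondrially encoded genes. Of the cholangiocyte markers, 5 genes of bile duct cells, Krt19 and Epcam are listed at 0 in at least 1 male library. The list summed to 243 FPKM in the liver labelled cKO and 37.3 in that labelled WT, and to 232 and 160 against 56.0 and 18.0 in male liver. Most of each sum is Spp1, with 177 against 34.6 FPKM in female liver and 217.5 and 148 against 53.8 and 16.3 in male liver. In either sex 4 of the 5 markers were measured, and all 4 were higher under the cKO label. The part of this list in either comparison was not tested.

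**Figure D3:**
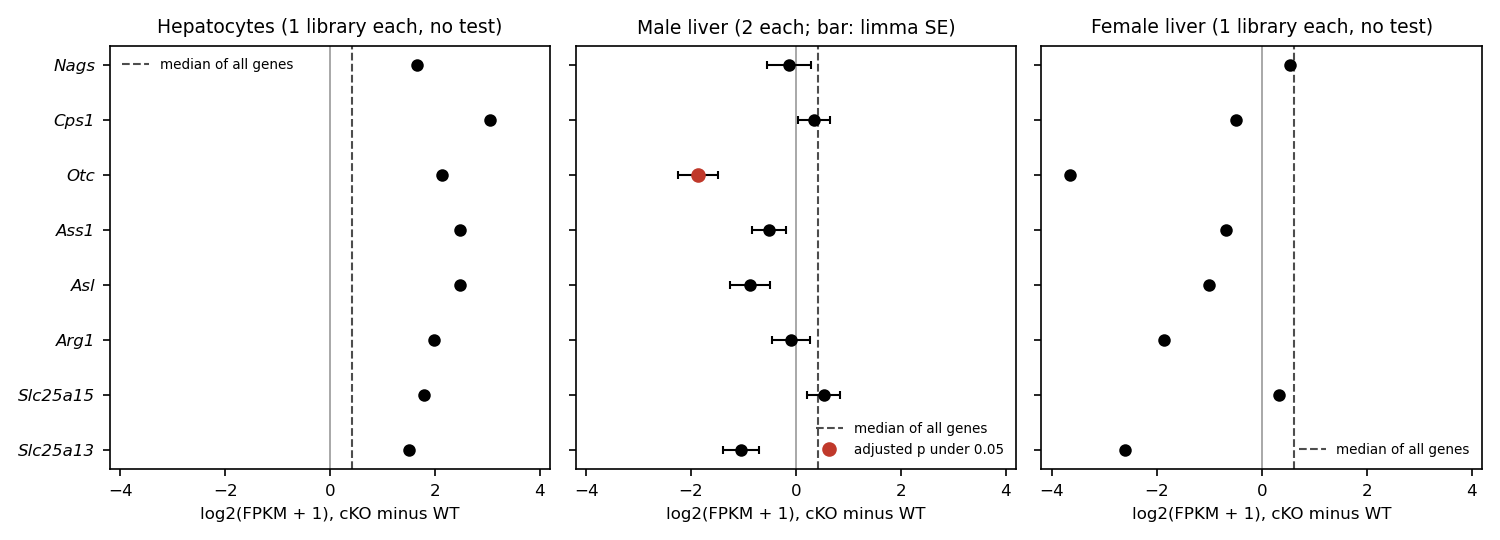
Difference of log2(FPKM + 1), cKO minus WT, of the 8 urea cycle genes in hepatocytes, male liver and female liver; bars in the middle panel are standard errors from limma (2 libraries per genotype), the red point passed an adjusted p of 0.05, and the dashed line is the median of all genes. All 8 points lie above 1.5 in hepatocytes, while Otc lies at -1.87 in male and -3.65 in female liver.

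In hepatocytes and male liver Ass1, Cps1 and Arg1 were the 3 highest of the 8 genes in every library and Nags the lowest. In female liver Cps1 stood behind Ass1, Arg1 and Asl under the cKO label and behind Ass1, Arg1, Otc and Asl under the WT label, and the lowest was Slc25a13 under the cKO label and Nags under the WT label. Ass1 ranked first in 7 of 8 libraries and Cps1 in male liver labelled cKO, replicate 3. In male liver, the WT values of Ass1 (1208 and 1598 FPKM) lay above those of Cps1 (667 and 735 FPKM), while in cKO livers the 2 genes overlapped. Otc (67.4 and 94.5 FPKM), Asl (106 and 60.8 FPKM), Slc25a13 (51.8 and 44.9 FPKM) and Slc25a15 (50.8 and 46.3 FPKM) stood close together in WT livers, with Otc above both carriers and the carriers overlapping. Cps1 made up 34.4% and 41.1% of the summed FPKM of the 8 genes in male livers labelled cKO, against 26.6% and 25.4% in those labelled WT, and 30.0% against 20.5% in hepatocytes. In female liver it made up only 4.96% against 3.41%. The female table differs from the others in sex, in library kit as far as the labels give it and in normalization, and these cannot be told apart. Otc made up 0.732% and 1.09% of the sum in cKO livers against 2.68% and 3.27% in WT livers of males, and 1.36% against 8.75% in females, but 2.43% against 2.91% in hepatocytes.

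**Figure D4:**
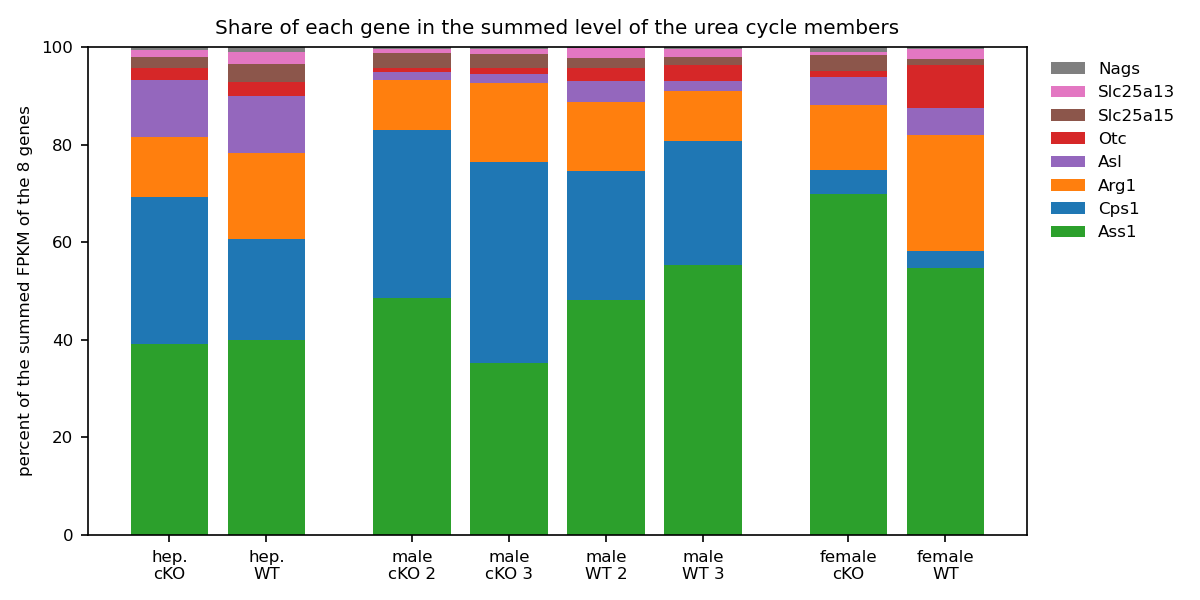
Share of each urea cycle gene in the summed FPKM of the 8 (y axis, percent), for each of the 8 expression libraries, cKO left of WT within hepatocytes (hep.), male and female liver. The Cps1 band is 20.5% or more in hepatocytes and male liver and under 5% in both female libraries.

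Of 28 further genes of nitrogen metabolism (11 enzymes, 9 transporters and 8 regulators), 27 could be tested in male liver. There 4 passed the limma test as lower in cKO and 0 as higher, against 1.50% of all genes lower and 3.68% higher. At an unadjusted p under 0.05 the counts were 9 and 1, against 559 lower and 2209 higher of all 10937 genes. Glul, the glutamine synthetase that takes up ammonia around the central vein, had 57.5 and 66.8 FPKM in cKO livers, against 459 and 527 in WT livers (-2.97 ± 0.31 SE, adjusted p = 0.00824 in limma). It had 53.2 against 468 FPKM in female liver, but 55.4 against 51.4 in hepatocytes, where the sign of the difference turned under other scalings. Glul thus showed the widest gap of these genes in both kinds of liver and almost none in hepatocytes. The other 3 are amino acid transporters: Slc38a3 had 114 and 132 against 358 and 396 FPKM (-1.60 ± 0.31 SE, adjusted p = 0.0360 in limma), Slc38a4 had 69.0 and 92.1 against 261 and 331 FPKM (-1.87 ± 0.34 SE, adjusted p = 0.0319 in limma), and Slc1a2, a glutamate transporter, 9.53 and 15.0 against 40.9 and 47.2 FPKM (-1.79 ± 0.38 SE, adjusted p = 0.0458 in limma). Without any 1 of the 4 libraries none of the 4 calls was kept, but such fits leave 1 library in a group and call almost no gene. In them the differences were -3.07 to -2.86 for Glul, -1.71 to -1.50 for Slc38a3, -2.08 to -1.66 for Slc38a4 and -2.09 to -1.49 for Slc1a2.

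Glutaminase Gls2, which frees ammonia for CPS1, had 56.2 and 48.5 FPKM in cKO livers, against 82.3 and 122 in WT livers (-0.93 ± 0.35 SE, adjusted p = 0.162 in limma). Oat, which links ornithine to glutamate, had 53.1 and 105 against 98.97 and 164 FPKM, and its groups overlapped (-0.76 ± 0.45 SE, adjusted p = 0.335 in limma). Car5a, the mitochondrial carbonic anhydrase that supplies bicarbonate to CPS1, had 3.49 and 6.22 against 21.1 and 12.8 FPKM (-1.62 ± 0.44 SE, adjusted p = 0.0811 in limma), for a table entry whose span is far longer than the gene. In hepatocytes all 26 measured genes of the 28 were higher under the cKO label, with a median difference of 1.81, against 67.6% of all genes and a median of 0.41. In female liver 6 of 28 were higher and 22 lower, with a median of -0.80, against 69.0% of all genes higher and a median of 0.61. The list of 28 shares 1 gene with the periportal markers (Gls2) and 4 with the pericentral markers (Glul, Oat, Slc1a2 and Rhbg). For peaks, 12 of the 28 had at least 1 in hepatocytes labelled cKO and 24 in those labelled WT, against 64.6% and 63.8% of all genes of at least 1 FPKM.

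After centring each gene within its own table, the mean profile of the 8 genes over the 8 libraries was most like that of Acot12, an acyl-CoA thioesterase (Pearson's r = 0.994), Acat1, a mitochondrial thiolase (0.990), Hnf4a, a transcription factor of hepatocytes (0.989), Adh5, which oxidises formaldehyde bound to glutathione (0.987), and Hadh, an enzyme of fatty acid oxidation (0.986), among 1862 genes of at least 10 FPKM on average in each table. These values describe 8 libraries in which the wide hepatocyte difference weighs most. Acot12 had 33.3 against 3.26 FPKM in hepatocytes, 14.7 and 21.8 against 26.2 and 25.9 in male liver, and 18.5 against 49.9 in female liver. Among the 8 themselves, Ass1 followed the mean of the other 7 most closely (r = 0.919) and Slc25a15 least (0.522).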

How the data were processed

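Mouse mRNA was measured by m6A immunoprecipitation sequencing (6 IP and 6 input libraries) and RNA-seq (2 libraries). The authors trimmed reads with cutadapt 1.9.3, aligned them to mm10 with HISAT2 2.0.4 and deposited FPKM per gene from Cuffdiff or Cufflinks (version not given in the sources used here). Labels and paper name different library kits. The deposited count columns are not whole numbers and were treated as a depth-scaled signal, used only for depth. Peaks were called by the authors with MACS in each IP library against its input, and the deposited lists give fold enrichment as a ratio, a score made from the log10 of the p-value and a false discovery rate in percent.

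FPKM were tested on log2(FPKM + 1) with limma 3.58.1 (R 4.3.3, variance trend) over the 4 male liver inputs, for genes averaging at least 1 FPKM, with Benjamini-Hochberg adjustment over all genes and a threshold of 0.05. With 1 library of each genotype in hepatocytes and in female liver, a difference of at least 2-fold was counted there without a test. The script was tested on simulated data. Peaks were placed on GENCODE M21 transcripts with Python 3.11.15 and bedtools 2.31.1, sharing at least 1 base to overlap, and sequences were read from GRCm38. Some peak sequences are not reported here. The 3 expression tables were normalized separately. Members and lists were chosen with earlier results of these data known. Named genes are the 8 members, Mettl3, list genes past the threshold, Glul, Gls2, Oat and Car5a, and the 5 genes most like the members' mean profile. Adgre1, Ca5a and Tf of the lists were read as Emr1, Car5a and Trf. Alternatives were other pseudocounts, filters, scalings, the replicate block, limma without trend, leaving out libraries and stricter peak limits.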

Additional observations from a re-analysis of the deposited data

Results flagged for a closer look

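The cKO minus WT difference (log2(FPKM + 1)) was higher in hepatocytes under the cKO label and lower in liver under it for several urea cycle genes. Male liver is given where both cKO livers lay on 1 side of both WT livers. These contrasts were not tested, since there is only 1 library of each genotype for hepatocytes and for female liver. Hepatocytes minus male liver came to 4.01 for Otc, 2.99 for Ass1, 3.37 for Asl and 2.56 for Slc25a13. Hepatocytes minus female liver came to 5.78 for Otc, 3.54 for Cps1, 3.16 for Ass1, 3.48 for Asl, 3.84 for Arg1 and 4.11 for Slc25a13. For Cps1 the sign also differed between female and male liver, and female minus male liver came to -0.83.

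Opposite signs were also seen for other named genes, leaving out the 5 genes picked for their likeness to the urea cycle genes. Slc38a3, Slc38a4 and Slc1a2 were named only for passing the test as lower in male liver, so their male liver sign was fixed by that choice. All 26 measured genes of the list of 28 were higher in hepatocytes. Only contrasts with opposite signs are given, and the share of all genes with opposite signs was not counted. Hepatocytes minus male liver came to 3.66 for Car5a, 3.07 for Gls2, 3.07 for Glul, 3.24 for Slc1a2, 3.77 for Slc38a3, 4.02 for Slc38a4 and -1.17 for Mettl3. Hepatocytes minus female liver came to 2.56 for Car5a, 4.48 for Gls2, 3.22 for Glul, 3.32 for Oat, 3.18 for Slc1a2, 3.64 for Slc38a3, 4.96 for Slc38a4 and -1.44 for Mettl3. The sign for Glul in hepatocytes depends on the scaling. No group had the 4 or more libraries needed to look for a single library far from the others.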

How the results depend on the processing

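Over all genes in male liver, 164 lower and 403 higher calls in limma became 9 and 2 with no filter on low values, 291 and 162 under median-ratio scaling, 286 and 788 with the replicate block, and 265 higher without the variance trend; without 1 library at a time the lower calls ranged from 0 to 2 and the higher from 0 to 0, with 305 to 880 and 1013 to 2129 genes at an unadjusted p under 0.05. The replicate numbers are not stated to pair the libraries (correlation of same-numbered deviations 0.126), and the replicate block left Otc the only member called, at an adjusted p of 0.0143. Of the members, 1 call became 0 with a pseudocount of 0.1, with no filter, without the trend and without any 1 library, and 2 under median-ratio scaling. Of the 28 related genes, 4 calls became 0 with no filter and without any 1 library, and 1 without the trend. Single differences that turned in male liver were Nags (-0.54 to 0.28 without 1 library), Arg1 (-0.46 to 0.28, with 0.04 without WT replicate 2) and Cps1 (-0.19 under median-ratio scaling); 92 of 96 member differences kept their direction. In hepatocytes, Glul turned to -0.27 under median-ratio scaling and to -0.72 without mitochondrially encoded genes, which also took the median of all genes to -0.24 and left 5 of 8 members 2-fold higher. In female liver, 3 members 2-fold lower became 6 under median-ratio scaling and 5 without mitochondrially encoded genes, Nags turned to -0.11 under the first, and Slc25a15 to -0.37 and -0.14. At a false discovery rate of at most 5%, 0 member peaks were left in hepatocytes labelled cKO, 0 in each liver library and 54 in hepatocytes labelled WT, and 0 overlapped; over all genes 0.0232% of peaks passed in hepatocytes labelled cKO, 0% in each liver library and 96.9% in hepatocytes labelled WT, so this limit acts on whole libraries. At 5-fold enrichment or more, 2 were left in hepatocytes labelled cKO and 1 in male WT replicate 2, and 2 overlapped. Except where the scaling, the filter or fewer libraries make the change by construction, the cause was not tested.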
